A study of Mus musculus with 8 samples.

Results

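Purinergic signalling in spinal microglia was followed through 8 genes, P2ry12, P2ry13, P2ry6, P2rx4, P2rx7, Entpd1, Adora3 and Gpr34. They were chosen by name, as rows of the deposited gene list carrying exactly these symbols, and all 8 were found among the 27998 genes. RNA was counted in single YFP-sorted cells of the lumbar spinal cord of C57BL/6 mice, in 8 libraries made with 3′ droplet chemistry, which tags every RNA molecule it catches with a barcode of its cell and with an identifier of its own (UMI). All animals carried Cx3cr1-yfp-creER/+, a YFP and an inducible Cre driven by the microglial gene Cx3cr1. Of the libraries, 4 were from such animals alone (control) and 4 from animals that also carried Tnfaip3 fl/fl, called A20 cKO after the protein A20 that Tnfaip3 encodes, an enzyme that restrains NF-kB signalling. Each genotype had a library of naive animals and libraries taken 1, 2 and 3 days after bilateral transection of the sciatic nerve. The study's methods describe young adult animals and tamoxifen given for recombination before the experiments. They do not say separately that control animals received tamoxifen.

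Cords of several animals were pooled for a library and each group had 1 library, so no difference between groups could be tested against the spread between animals. Intervals in brackets or after values are 95% intervals that cover counting error only, and no p-value is given. Kept cells numbered 14626 of 14883 barcodes, with 1620481 to 15817426 UMIs in the kept cells of a library and 2780 to 4274 UMIs per cell at the median. The microglial gene Tmem119 had a UMI in 96.2% to 100% of cells of each library, while Fcrls, another gene typical of microglia, had one in 92.8%, 97.6%, 96.3% and 86.1% of control cells (naive, day 1, day 2 and day 3) and in 59.96%, 59.9%, 31.9% and 26.7% of A20 cKO cells in the same order. The libraries also fell into sets that did not follow the genotype. The 4 A20 cKO libraries together with control day 3, here the linked libraries, shared cell barcodes more often at the median than the other pairs did. Per 1000000 pairs of cells the median was 13.7 shared barcodes over 10 linked pairs of libraries and 1.86 over the 18 other pairs. The ranges overlapped, at 5.41 to 67.6 for linked pairs and 0.797 to 8.83 for the others. Linked libraries also carried more RNA of other tissues, with choroid plexus and ependymal markers at 127 to 401 CPM, the UMIs of genes scaled to a common library total, against 0 to 0.285 in control naive, day 1 and day 2. At least 3 of 7 neutrophil markers were found in 71 cells, all in linked libraries, and at least 3 of 7 oligodendrocyte markers in 218 cells, of which 173 were in linked libraries. No cell had 3 of 6 monocyte markers and 1 cell had 3 of 6 border macrophage markers. By level, monocyte markers stood at 31.2 to 92.6 CPM in linked libraries and 2.77 to 8.64 CPM in the others. Border macrophage markers stood at 3.29 to 12.2 and 0.498 to 1.33 CPM. B cell markers went the other way, at 21.2 to 37.2 CPM in linked libraries and 38.2 to 51.1 CPM in the others. Leaving out cells with markers of other types moved no ratio of the members below by more than 0.051 on the log2 scale and leaving out shared barcodes none by more than 0.0819, and each took both members past 2-fold in A20 cKO day 1 to just short of it. Free RNA of other tissues in the remaining cells was not tested. Tnfaip3 itself was not used to check the labels, since reads from the 3′ end of a transcript need not show whether a floxed part was removed.

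ATP and its breakdown products are signals of tissue damage, and microglia read them through several receptors. P2Y12 and P2Y13 are Gi-coupled receptors for ADP, and P2Y12 is known for drawing microglial processes to an injury and as a marker of resting microglia. P2Y6, a Gq-coupled receptor for UDP, is known for phagocytosis, while P2X4 and P2X7 are ATP-gated cation channels, P2X4 known for its role in pain after nerve injury and P2X7 for opening at high ATP and for release of interleukin-1β. CD39, encoded by Entpd1, sits at the cell surface and degrades ATP and ADP to AMP, and Adora3 encodes the Gi-coupled A3 receptor for adenosine, the last product of that breakdown. Gpr34, a microglial receptor of the P2Y-like family, responds to lysophosphatidylserine.

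In the annotation GENCODE M21 on GRCm38, P2ry13 (chr3:59207892-59210882, minus strand) and P2ry12 (chr3:59216272-59262871, minus strand) lay 5389 bases apart. Both sat inside Med12l on the opposite strand, with 9 exon bases shared for P2ry12 and 0 for P2ry13. P2rx7 (chr5:122643911-122691432, plus strand) and P2rx4 (chr5:122707544-122729738, plus strand) were likewise neighbours, 16111 bases apart. The remaining genes were P2ry6 (chr7:100937630-100974649, minus strand), Entpd1 (chr19:40612366-40741602, plus strand), Adora3 (chr3:105870858-105908926, plus strand) and Gpr34 (chrX:13632089-13640858, plus strand, inside Cask on the opposite strand with 0 exon bases shared). Adora3 shared 779 of its 3729 exon bases with Tmigd3 on the same strand, so reads there could have gone to either gene or been dropped. Tmigd3 was counted at 0.549 to 1.85 CPM in the 8 libraries.

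RefSeq promoter windows (GRCm38.p6, 250 bases before to 50 after a start) were on hand for 6 of the 8 genes, 8 windows in all, and none was on hand for P2ry6 or Gpr34. Those of P2ry12 and P2ry13 are shown because these neighbours were both lower after injury, and that of P2rx4 because its level went the other way in A20 cKO. Capitals mark the letters GAGGAA, a form of the PU.1 binding site, searched on both strands. The shorter GGAA core of ETS factors was not searched for by itself.
P2ry12, chr3:59262936-59263235, minus strand: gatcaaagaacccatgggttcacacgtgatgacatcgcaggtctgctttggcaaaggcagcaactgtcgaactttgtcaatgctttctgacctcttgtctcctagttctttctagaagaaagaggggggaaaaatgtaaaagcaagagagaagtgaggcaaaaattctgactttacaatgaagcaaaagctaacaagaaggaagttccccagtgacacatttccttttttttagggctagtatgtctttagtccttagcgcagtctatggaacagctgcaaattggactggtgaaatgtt
P2ry13, chr3:59210833-59211132, minus strand: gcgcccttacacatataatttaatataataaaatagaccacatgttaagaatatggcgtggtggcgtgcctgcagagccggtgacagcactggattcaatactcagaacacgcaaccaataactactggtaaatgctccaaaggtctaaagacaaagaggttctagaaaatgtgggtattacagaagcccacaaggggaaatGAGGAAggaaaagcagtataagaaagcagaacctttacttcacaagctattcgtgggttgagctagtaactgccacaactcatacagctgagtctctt
P2rx4, chr5:122707294-122707593, plus strand: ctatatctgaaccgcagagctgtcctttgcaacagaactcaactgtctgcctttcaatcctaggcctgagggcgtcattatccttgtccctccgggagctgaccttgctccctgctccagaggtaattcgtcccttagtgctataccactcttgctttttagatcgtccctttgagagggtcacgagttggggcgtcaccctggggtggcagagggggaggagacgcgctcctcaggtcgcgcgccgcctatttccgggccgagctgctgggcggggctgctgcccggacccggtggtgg
Of these windows, that of P2ry13 held the letters, 48 bases before the start, and the other two did not. Over the members, 5 of 8 windows held GAGGAA, against 28.3% of all 32851 RefSeq windows of this length. CTA and TAG with any 4 bases between them were held by 0, against 3.69% of all windows. This pattern is looser than the MEF2 motif, whose 4 middle bases are A or T. With so few windows these counts only describe the sequences.

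Levels of the members are likewise CPM over the kept cells of a library. Because counts came from 3′ tags, levels of different genes were not ranked against each other. P2ry12 stood at 4026 CPM in control naive, 2680 at day 1, 2463 at day 2 and 2191 at day 3, and at 2755 CPM in A20 cKO naive, 1414 at day 1, 908 at day 2 and 845 at day 3. In both genotypes the naive library was thus the highest and each later day lower than the day before, although in A20 cKO the intervals of days 2 (874 to 942 CPM) and 3 (809.5 to 881 CPM) overlapped. Control naive was 4.77 times A20 cKO day 3. The share of cells with a P2ry12 UMI, after each cell had been thinned to 2000 UMIs, was 99.8%, 98.5%, 98.8% and 95.4% in control (naive, day 1, day 2, day 3) and 93.9%, 84.8%, 76.4% and 74.0% in A20 cKO. Without thinning it was at least 97.3% in both naive libraries and all control days, and between 90.1% and 92.8% in the injured A20 cKO libraries.

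Gpr34 had the widest range of the 8 genes, with 5.88 times between its highest and lowest library. Its levels were 1840, 1006, 866 and 797 CPM in control from naive to day 3, and 1094, 561, 313 and 414 CPM in the A20 cKO libraries. No 2 neighbours in the order of the 8 libraries had overlapping intervals, and A20 cKO day 3 (390 to 440 CPM) lay above A20 cKO day 2 (293 to 333 CPM). Thinned cells of control naive had a Gpr34 UMI in 94.8% of cases and those of A20 cKO day 2 in 43.0%. Cask, which spans Gpr34 on the other strand, was counted at 14.2 to 53.1 CPM.

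P2ry13 followed its neighbour P2ry12 in control, with 961, 693, 529 and 353 CPM from naive to day 3. In A20 cKO it began at 453 CPM and stood at 342, 234 and 264 CPM on days 1, 2 and 3. All 5 linked libraries were below the 3 others, control day 3 included, so for P2ry13 the genotype and the library set cannot be told apart except where libraries of the linked set were compared. Between control day 3 and A20 cKO day 1 the intervals overlapped (339 to 367 and 322 to 364 CPM). Med12l, in which both genes lie, was counted at 32.0 to 64.4 CPM.

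P2ry6 kept a narrow range, from 554 CPM in A20 cKO day 3 to 888 CPM in control day 2, or 1.60 times. Control naive, day 1, day 2 and day 3 stood at 645, 746, 888 and 685 CPM, a peak at day 2. The A20 cKO libraries stood at 611, 689, 591 and 554 CPM, highest at day 1. From A20 cKO day 1 downward every library's interval overlapped that of the next. After thinning, 71.7%, 76.5%, 82.4% and 72.0% of control cells had a P2ry6 UMI, and 69.1%, 74.3%, 70.4% and 63.8% of A20 cKO cells.

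P2rx4 was ordered by genotype. Its control levels were 144, 129, 116 and 150 CPM from naive to day 3, and its A20 cKO levels 213, 206, 225 and 285 CPM, so every A20 cKO library was above every control library. Within A20 cKO, day 3 (264 to 306 CPM) lay above the other days, whose intervals overlapped. The 3 controls outside the linked set reached 144 CPM and the linked set began at 150 CPM, with control day 3 overlapping control naive and not the A20 cKO libraries. A P2rx4 UMI was present in 20.6% to 25.9% of thinned control cells and in 29.6% to 42.4% of thinned A20 cKO cells.

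P2rx7, next to P2rx4 on chromosome 5, was instead ordered by library set, though not beyond counting error for every pair. Its levels were 126, 79.5, 87.2 and 169 CPM in control from naive to day 3, and 184, 149, 134 and 166 CPM in A20 cKO. Control day 3 (159 to 178 CPM) overlapped A20 cKO naive, day 1 and day 3, and lay above control naive (109 to 144 CPM), which belonged to the other library set. Control naive in turn overlapped A20 cKO day 1 (136 to 164 CPM) and day 2 (122 to 148 CPM) of the linked set.

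Entpd1 was lower on the first days after injury in both genotypes. In control it stood at 337 CPM naive, 176 at day 1, 175 at day 2 and 284 at day 3, and in A20 cKO at 338, 257, 152 and 191 CPM. Both naive libraries had the same level within counting error (309 to 366 and 326 to 350 CPM), although they belonged to different library sets. The lowest library was day 2 in each genotype, and in control its interval overlapped that of day 1.

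Adora3 had the smallest range, 1.57 times, from 103 CPM in A20 cKO day 2 to 162 CPM in control day 2. In control it stood at 139 CPM naive and at 158, 162 and 108 CPM on days 1, 2 and 3, and in A20 cKO at 123, 106, 103 and 110 CPM. Each library's interval overlapped that of the next in order, and all 5 linked libraries lay below the 3 others.

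**Figure D1:**
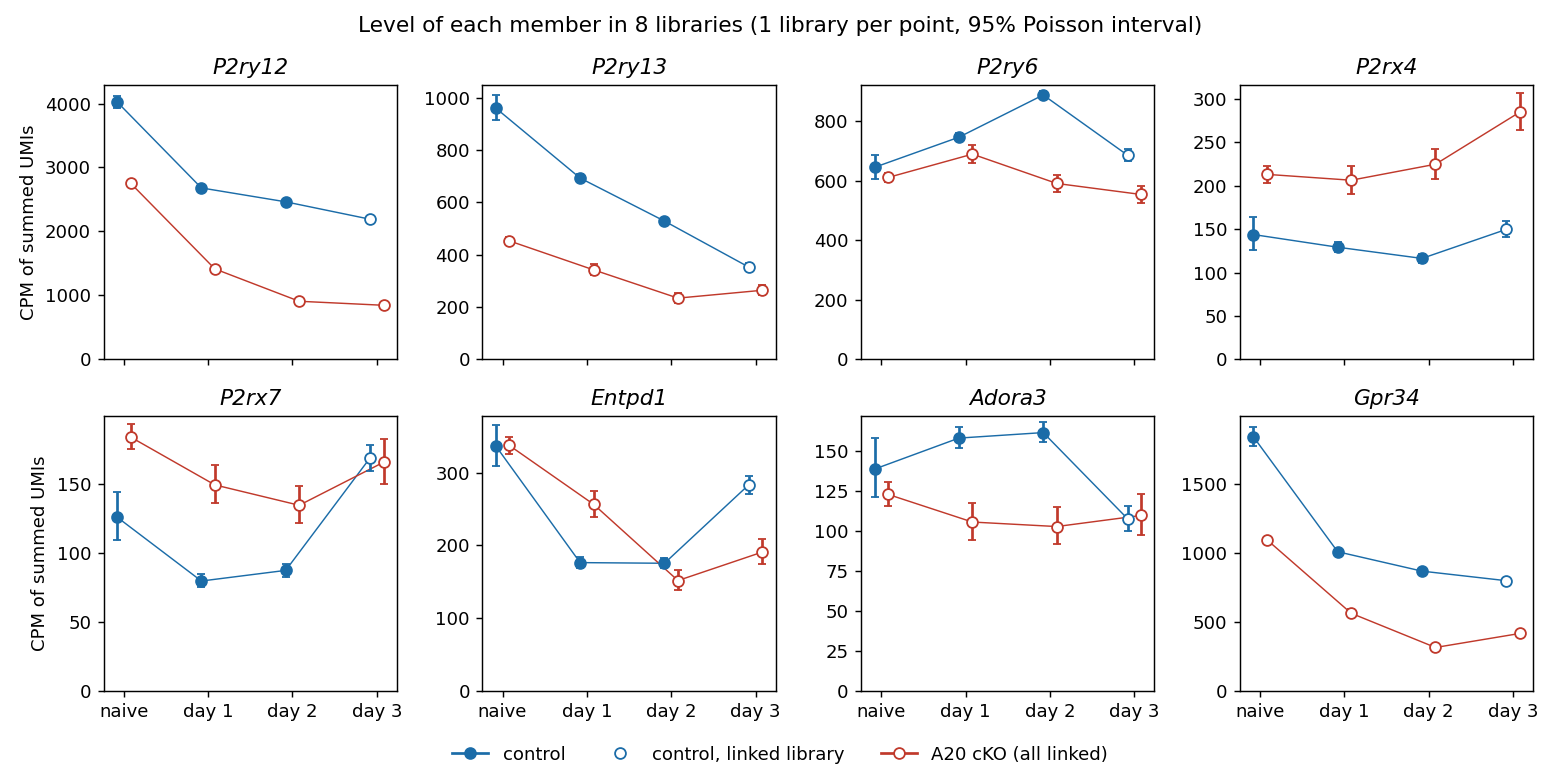
Level of each gene in CPM (vertical axis, from 0) by day (horizontal axis), with 1 point per library, bars for 95% Poisson intervals and open points for linked libraries. P2ry12 and Gpr34 were highest in control naive, at 4026 and 1840 CPM, and lower on every injured day, while P2rx4 was higher in each A20 cKO library (206 to 285 CPM) than in any control library (116 to 150 CPM).

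Shares of cells with a UMI can hold free RNA captured with a cell. As a background, 47 kept cells with at most 5 of 11 microglia markers, all in linked libraries and at a median depth of 1366 UMIs, were set beside the 7103 other cells of those libraries (median 3148 UMIs). This limit on markers was chosen after the data had been seen. P2ry12 was found in 10.6% of the former (3.55% to 23.1%) and 96.3% of the latter, Gpr34 in 2.13% and 82.1%, P2rx4 in 6.38% and 44.7%, and P2rx7 in 2.13% and 42.4%. Adora3 was found in 0 of 47 such cells, which allows a share of up to 7.55%, and in 30.8% of the others. Each gene was thus detected in many more microglia than in cells with few microglia markers of the same libraries, at unequal depth.

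How injury altered the genes was asked first in control animals, by dividing each library's CPM by that of control naive. Ratios are log2 values relative to the median gene among those with at least 100 UMIs in both libraries together, and 2-fold in either direction (a log2 ratio of 1 or -1) marks a large difference. In control day 1 no member passed 2-fold, while 5.09% of 8866 genes were higher and 5.22% lower by that much. The largest differences were in Entpd1 at -0.81 (-0.94 to -0.67) and Gpr34 at -0.74 (-0.80 to -0.68), followed by P2rx7 at -0.54, P2ry12 at -0.46 and P2ry13 at -0.34. P2ry6 at 0.34 and Adora3 at 0.31 were higher, and P2rx4 at -0.03 (-0.22 to 0.18) showed no difference beyond counting error. The study itself reported P2ry12 as unchanged at day 1 by qRT-PCR of sorted lumbar microglia. Its qRT-PCR set the injured side against the uninjured side, not injured against naive animals.

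At day 2 again 0 of 8 members passed 2-fold, against 7.18% of 9279 genes higher and 4.27% lower. Gpr34 came nearest at -0.97 (-1.03 to -0.91), and without centring on the median gene it was past the limit at -1.09 (-1.14 to -1.03). In the centred ratios P2ry13 had moved from -0.34 at day 1 to -0.75. Entpd1 stayed at -0.83 and P2ry12 stood at -0.59. P2ry6 reached 0.58 (0.49 to 0.67), its highest ratio in any comparison. Leaving out dividing cells, which made up 13.2% of thinned cells at day 2, gave -0.76 for Gpr34 and -0.41 for P2ry12.

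Control day 3 and control naive came from different library sets, so day and set cannot be told apart there. P2ry13 at -1.52 and Gpr34 at -1.28 were lower by more than 2-fold and no member was higher, against 3.02% of 8302 genes lower and 7.48% higher. P2ry12 stood at -0.95, Adora3 at -0.44 and Entpd1 at -0.32, and P2rx7 was on the other side at 0.35.

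The A20 cKO libraries were all from the linked set, and day by day they were compared with A20 cKO naive. On day 1 P2ry12 at -1.002 (-1.05 to -0.96) and Gpr34 at -1.003 (-1.08 to -0.93) lay on the 2-fold line, 2 of 8 members lower and 0 higher, against 1.57% of 8919 genes lower and 1.38% higher. Under 8 of 12 other settings of the processing fewer than 2 members passed, with ratios down to -0.92 for P2ry12 and -0.86 for Gpr34. P2ry13 at -0.44 and Entpd1 at -0.43 were lower as well, and P2ry6 was at 0.14 (0.06 to 0.21).

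By day 2 the lower members numbered 3 of 8, with P2ry12 at -1.53 (-1.59 to -1.47), Gpr34 at -1.73 (-1.83 to -1.64) and Entpd1 at -1.08 (-1.23 to -0.94), and none was higher. The background was 2.28% of 8921 genes lower and 3.31% higher. P2ry13 stood at -0.88 and P2rx7 at -0.38, while P2ry6 at 0.02 (-0.05 to 0.10) did not differ beyond counting error. Entpd1 came to -0.97 without dividing cells and to -0.96 on thinned cells without the interferon class, inside the 2-fold limit.

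On day 3 P2ry12 at -1.61 (-1.67 to -1.54) and Gpr34 at -1.30 (-1.40 to -1.21) remained past 2-fold, 2 of 8 lower and 0 higher, where 1.48% of 8797 genes were lower and 2.48% higher. P2rx4 had by then gone the other way, to 0.52 (0.39 to 0.64), from -0.08 at day 1 and 0.15 at day 2. Entpd1 was at -0.72 and P2ry13 at -0.68.

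Uninjured microglia of the genotypes were compared as A20 cKO naive against control naive. These 2 libraries came from different sets, so genotype and set cannot be told apart there. P2ry13 was lower by more than 2-fold at -1.13 and no member was higher by as much, against 2.48% of 8641 genes lower and 6.47% higher. Gpr34 at -0.79 and P2ry12 at -0.59 were lower, P2rx4 at 0.52 and P2rx7 at 0.50 higher, and Entpd1 at -0.04 (-0.17 to 0.09) did not differ beyond counting error. Over cells outside the interferon class described below, a setting added after the data had been seen, P2ry12 came to -0.32, Gpr34 to -0.50 and P2ry13 to -0.99.

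Within the linked set the genotypes could be compared at day 3. Against control day 3, A20 cKO day 3 was lower for P2ry12 at -1.26 (-1.32 to -1.19) and higher for P2rx4 at 1.05 (0.91 to 1.18), so 1 of 8 members passed 2-fold in each direction, where 1.73% of 8488 genes were lower and 2.39% higher. P2rx4 fell just short of 2-fold on thinned cells, at 0.995, and without centring on the median gene, at 0.93. Gpr34 stood at -0.83, Entpd1 at -0.45, P2ry13 at -0.30 and P2ry6 at -0.19. For P2rx7 at 0.09 (-0.07 to 0.25) and Adora3 at 0.15 (-0.06 to 0.34) the intervals spanned 0.

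A20 cKO naive against control day 3, another pair of the linked set that crossed genotypes, set an uninjured library beside an injured one. All 8 members lay within 2-fold, with ratios from -0.15 for P2ry6 to 0.52 for P2rx4, and the background was 1.01% of 9541 genes higher and 1.45% lower. P2ry12 at 0.34, P2ry13 at 0.37 and Gpr34 at 0.47 were each higher in A20 cKO naive.

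**Figure D2:**
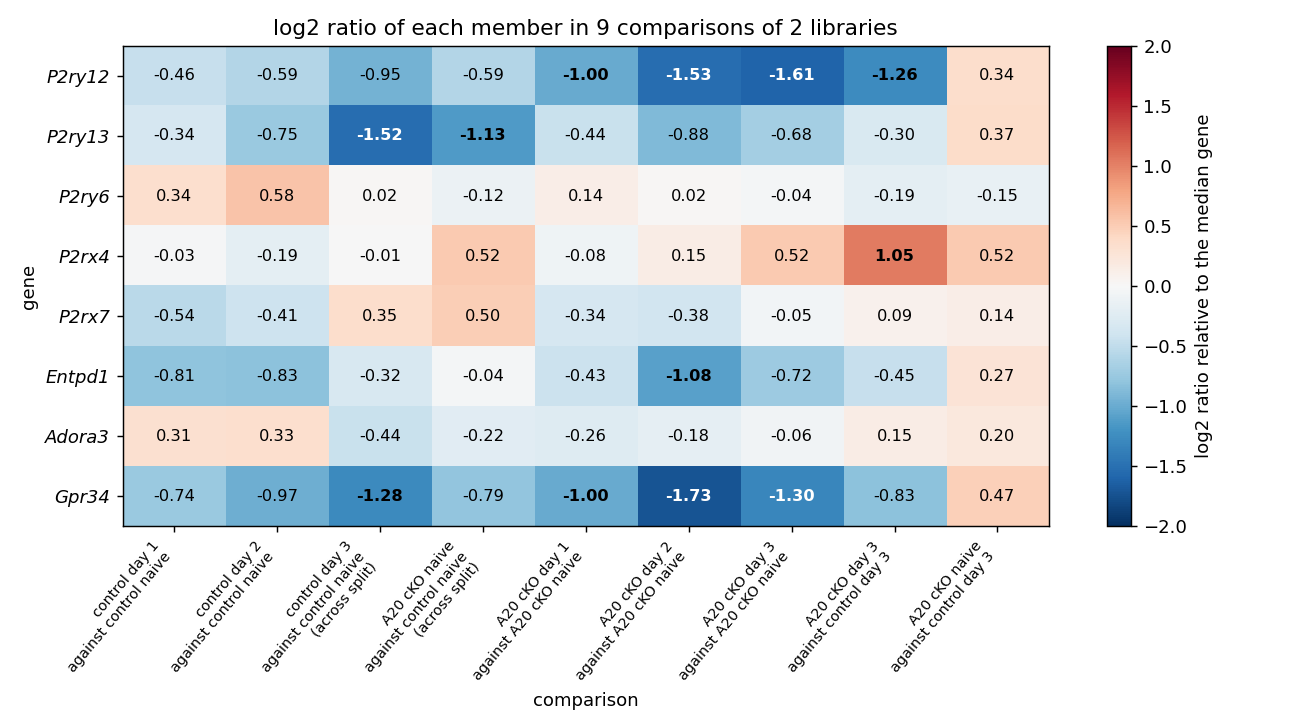
log2 ratio of each gene (rows) in 9 comparisons of 2 libraries (columns), relative to the median gene, in red where the library named first was higher and blue where it was lower, with values past 2-fold in bold. The rows of P2ry12 and Gpr34 are blue in all comparisons but the last, down to -1.61 and -1.73, and P2rx4 holds the only red value past 2-fold, 1.05.

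How evenly the receptors were spread over cells was read from cells thinned to 2000 UMIs, which left 13691 cells and removed 935 shallower ones. From naive to day 3 the median cell held 8, 5, 5 and 4 UMIs of P2ry12 in control and 5, 2, 1 and 1 in A20 cKO. Cells without a P2ry12 UMI made up 0.199% of control naive, 1.46% of control day 1 and 4.58% of control day 3, with 6.13%, 15.2%, 23.6% and 26.0% of A20 cKO naive, day 1, day 2 and day 3. At the other end, cells with 10 or more P2ry12 UMIs made up 31.7% of control naive, 7.35% of control day 3 and 19.4% of A20 cKO naive, and 1 of 538 cells of A20 cKO day 3.

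The variance of P2ry12 UMIs between cells was 3.08 times their mean in A20 cKO naive and 2.77 times in A20 cKO day 1, against 1.62 to 2.14 times in the 4 control libraries and 1.71 and 1.67 times in A20 cKO day 2 and day 3. Pure counting gives a ratio of 1 for cells of equal level. For Gpr34 the ratios were 1.98 and 1.87 in these libraries and 1.36 to 1.48 elsewhere. The ratio grows with the level, so its excess over 1 was also divided by the mean. On that scale P2ry12 stood at 0.0767, 0.129, 0.126 and 0.247 in control from naive to day 3 and at 0.357, 0.572, 0.370 and 0.391 in A20 cKO, higher in each A20 cKO library than in any control library and highest at day 1. Control day 3, of the linked set, was the highest control, so all linked libraries also lay above the others. A20 cKO naive held 6.13% of cells without a P2ry12 UMI and 19.4% with 1 or 2, beside 19.4% with at least 10.

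Counting how many of the 8 genes had a UMI in a cell gave a median of 5 in control naive, 4 in the 3 injured control libraries, 4 in A20 cKO naive and day 1, and 3 in A20 cKO day 2 and day 3. Cells with at most 2 of the 8 genes made up 1.20% of control naive, 5.61%, 6.12% and 9.85% of control day 1, day 2 and day 3, 8.88% of A20 cKO naive, and 17.1%, 26.5% and 23.6% of the injured A20 cKO libraries.

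**Figure D3:**
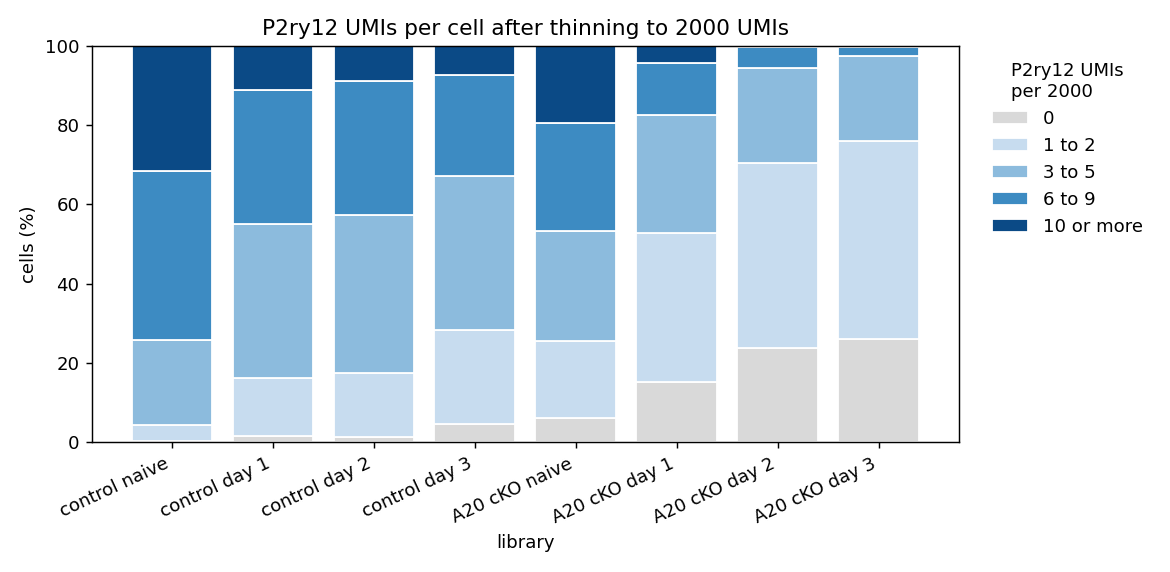
Share of cells (vertical axis, %) by P2ry12 UMIs per cell after thinning to 2000 UMIs, 1 stacked bar per library. Cells with 10 or more UMIs (darkest) make up 31.7% of control naive and 19.4% of A20 cKO naive, and cells without a UMI (grey, bottom) 26.0% of A20 cKO day 3.

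Whether the receptors differed between states of microglia inside a library was asked with classes of cells, each class taken against the other cells of the same library, so that library and depth were shared. A class held cells with UMIs of at least 3 genes of a list without any member: 18 core G2/M genes for dividing cells, 12 interferon response genes, or 10 chemokine and cytokine genes. Such a class is a range cut from a count, not a cell type. For instance 181 of the 461 dividing cells of control day 2 had exactly 3 of the genes and 501 other cells had 2. Cells with at most 5 microglia markers were left out, and only libraries with at least 30 cells on each side were used.

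Dividing cells numbered 461 in control day 2, 160 in control day 3, and 68, 76 and 38 in A20 cKO naive, day 2 and day 3. In all 5 libraries several members made up a smaller share of UMIs in dividing cells than in the other cells. Gpr34 was lower by 0.68 to 1.73 on the log2 scale and P2ry12 by 0.38 to 1.20, with every interval below 0. Entpd1 was lower by 0.40 to 1.42, again with 5 of 5 intervals below 0. In control day 2, the library with most dividing cells, they held 1.23 UMIs of Gpr34 per cell and the other cells 1.92. P2rx4 also lay below the other cells in 5 of 5 libraries (-0.40 to -1.84), in 3 with the interval below 0, although in A20 cKO naive its ratio rested on 8 UMIs in dividing cells.

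Interferon class cells made up 0.961% and 1.21% of control day 1 and day 2, 29.1% of control day 3, and 26.1%, 31.7%, 57.8% and 61.9% of A20 cKO naive, day 1, day 2 and day 3. P2ry12 was lower in them in 7 of 7 libraries, from -0.12 to -1.08, with the interval below 0 in 6. Gpr34 was lower in 7 of 7, from -0.12 to -1.19, also with 6 intervals below 0, and Entpd1 in 7 of 7, with 4. In A20 cKO naive, interferon class cells held 3.03 P2ry12 UMIs per cell and the others 6.83, against 1.58 and 1.91 in A20 cKO day 3. P2rx4 went the other way in 7 of 7 libraries, from 0.02 to 0.62, with 4 intervals above 0, those of control day 3 and of A20 cKO naive, day 1 and day 2.

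Cells of the chemokine class showed the same signs for these genes. P2ry12 was lower in 7 of 7 libraries (-0.09 to -0.82) with every interval below 0 and Gpr34 in 7 of 7 (-0.11 to -0.96) with 6. P2rx4 was higher in 7 of 7 (0.11 to 0.82) with 4 intervals above 0, most in A20 cKO naive with 0.67 UMIs per class cell and 0.40 per other cell. P2ry6 stayed between -0.17 and -0.04 with no interval clear of 0. The chemokine class held 70.3% of control day 1 cells, where the differences were smallest for P2ry12 and Gpr34. Cells can belong to several classes, and the overlap between them was not removed.

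In early response cells, set by 10 immediate early genes such as Fos and Egr1, the signs were mixed. P2ry12 was higher in 4 of 7 libraries, control day 2 and day 3 and A20 cKO naive and day 3, by 0.09 to 0.28 with 4 intervals above 0. It was lower in 3, which had 30, 44 and 32 such cells, down to -0.32 with 0 intervals below 0. With a limit of 4 genes P2ry12 was higher in 4 of the 4 libraries that could be compared. In control day 1 there were 3223 such cells and 2 others, so no comparison was made in that library. Early response cells made up 5.98%, 99.9%, 26.3% and 40.1% of control cells from naive to day 3. In A20 cKO they made up 54.9%, 5.30%, 5.12% and 41.4%. Injured and naive libraries thus differed in this share, and its part in the ratios between libraries was not tested.

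**Figure D4:**
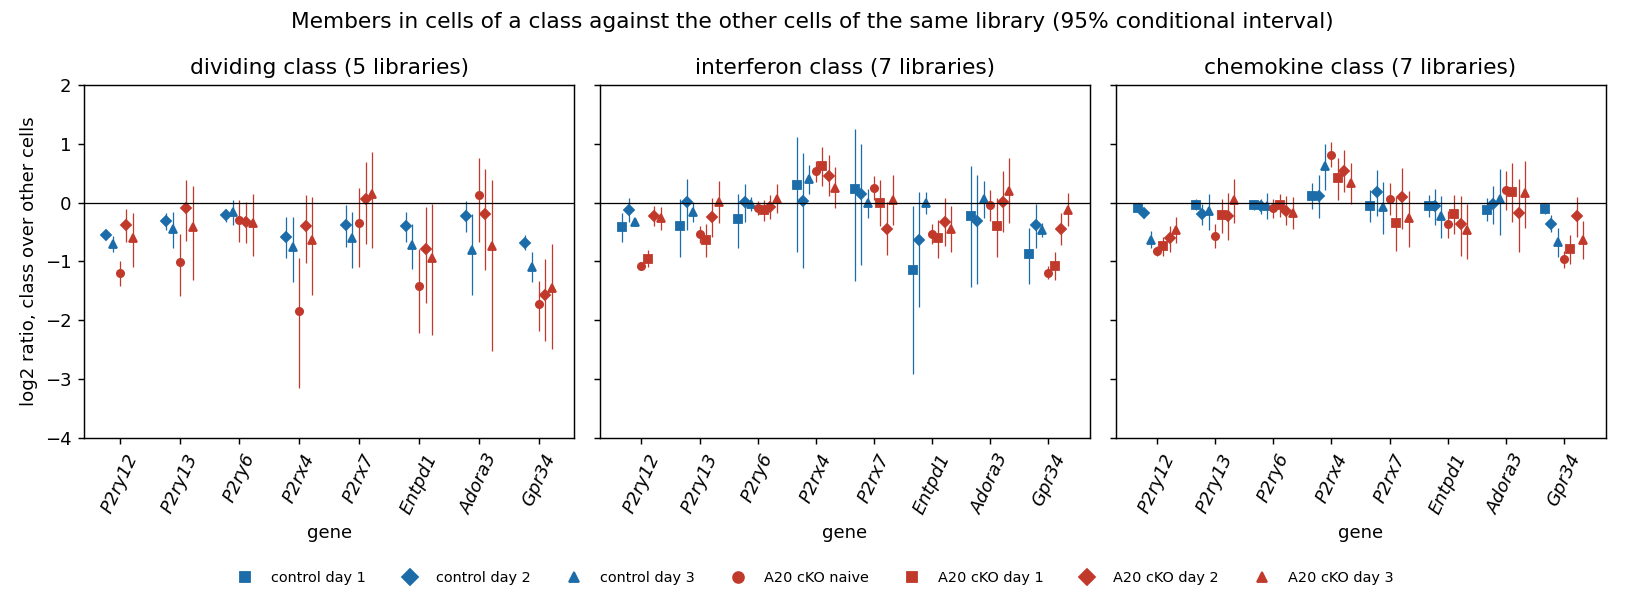
log2 ratio of each gene (horizontal axis) in cells of a class over the other cells of the same library (vertical axis), 1 symbol per library, with 95% conditional intervals. Gpr34 and P2ry12 lie below 0 in every library shown in all 3 panels, and P2rx4 lies below 0 in the dividing class and above 0 in the interferon class (0.02 to 0.62) and the chemokine class (0.11 to 0.82).

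Cells without a P2ry12 UMI were also low in its companions. In the 7 libraries with at least 30 such cells, Gpr34 was lower in them in 7 of 7, with a median log2 ratio of -0.97 and 6 intervals below 0, and P2ry13 in 7 of 7, with a median of -0.61 and 5 intervals below 0. P2ry6 differed less, between -0.40 and -0.06. P2rx4 was higher in 4 libraries and lower in 3, and only in A20 cKO naive at 0.68 (0.37 to 0.97) and A20 cKO day 1 at 0.67 (0.27 to 1.04) was the interval clear of 0.

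The rest of the pathway was counted over 55 further genes in 7 lists, of which 6 had no UMI in any library and 21 had fewer than 100 UMIs in all libraries together. The list of other P2Y receptors also held Med12l, counted as a chromosome 3 neighbour and not as a gene of the pathway. Between 23 and 29 could be compared in each comparison, among them all 13 signalling partners, such as G protein subunits, in control day 1. Among the 5 other P2X receptors no more than 1 and among the 3 other adenosine receptors 0 reached the minimum of 100 UMIs in any comparison. In control day 1, 3 of 26 compared were higher past 2-fold and 0 lower, against 5.09% and 5.22% of all genes. In control day 2 it was 2 higher and 2 lower of 26 (7.18% and 4.27% of all genes), and in control day 3 it was 0 higher and 2 lower of 23 (7.48% and 3.02%). A20 cKO naive against control naive had 2 higher and 1 lower of 23 (6.47% and 2.48%). Against A20 cKO naive, day 2 had 1 higher and 0 lower of 24 (3.31% and 2.28%), while day 1 (1.38% and 1.57%) and day 3 (2.48% and 1.48%) had 0 of 23 in either direction. Against control day 3, A20 cKO day 3 had 1 higher and 0 lower of 25 (2.39% and 1.73%) and A20 cKO naive 1 higher and 0 lower of 29 (1.01% and 1.45%). With so few genes these counts only describe the lists.

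Among genes of ATP release, Panx1, a channel that lets ATP out, was at 3.09, 10.2, 10.1 and 7.69 CPM in control from naive to day 3 and at 4.61 to 5.51 CPM in A20 cKO. Its log2 ratio was 1.73 at control day 1 (0.60 to 3.50) and 1.69 at day 2, against only 5 UMIs in control naive. Slc17a9, which loads ATP into vesicles, was highest in control naive at 34.6 CPM, at 12.9 CPM in control day 2 (-1.31) and at 13.4 CPM in control day 3 (-1.44), and it was at 14.6 CPM in A20 cKO naive (-1.30).

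Of the other P2Y receptors, P2ry14, a receptor for UDP-glucose, passed 2-fold in A20 cKO day 2 against A20 cKO naive at 1.95 (1.42 to 2.48). It stood at 0.617, 0.925, 0.506 and 6.45 CPM in control from naive to day 3 and at 6.28, 7.26, 23.1 and 12.98 CPM in A20 cKO, so all linked libraries were above the others. After thinning, 1.11% of A20 cKO naive cells, 2.72% of day 2 cells and 3.53% of day 3 cells had a P2ry14 UMI. The intervals of days 2 and 3 overlapped. Among ectonucleotidases Enpp4 was at 14.2 to 29.4 CPM in control and 41.4 to 52.3 CPM in A20 cKO, with a ratio of 1.47 between the naive libraries. The naive libraries came from different sets, so genotype and set cannot be told apart in that ratio. Between A20 cKO naive and control day 3, both linked, the highest ratio among the 5 compared genes of the ectonucleotidase list was 0.51. Enpp2 was at 0 to 0.0711 CPM in control naive, day 1 and day 2 and at 4.71 to 16.9 CPM in the linked libraries, and its ratio between A20 cKO day 3 and control day 3 was 1.11 (0.51 to 1.69). That ratio rested on 43 UMIs in 3 cells and 62 UMIs in 11 cells. Enpp2 encodes autotaxin, which choroid plexus makes in abundance, and choroid plexus markers followed the same split. Il1b, whose product leaves the cell after P2X7 opens, was at 18.2 CPM in control day 1 (2.55 against 5 UMIs in naive) and at 12.3 CPM in A20 cKO naive, above control day 3 at 1.78 CPM by 2.76 on the log2 scale. The remaining genes past 2-fold were Slc29a2 (1.53 at control day 1, against 4 UMIs in naive), Adk (1.25 at control day 2), Pik3cg (-1.06 at control day 2) and Lrrc8a (-1.01 at control day 3). Kcnk13, the potassium channel THIK-1 through which microglia respond to ADP and ATP, ranged from 59.0 to 111 CPM and did not pass 2-fold in any comparison.

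Genes whose levels followed each member most closely were ranked by Pearson's r of log2(CPM + 1) over the 8 libraries, among 3236 genes averaging 50 CPM or more. P2ry12 was nearest to Crybb1 (0.993), Ldlrad4 (0.988) and Prkca (0.984), Gpr34 to Rab14 (0.993), Hpgd (0.983) and Pttg1ip (0.981), and P2ry13 to Selplg (0.988), Prkab1 (0.987) and Csnk1d (0.982). For P2rx4 the nearest were H2-Q4 (0.985), Icosl (0.984) and H2-K1 (0.979), of which H2-Q4 and H2-K1 encode MHC class I molecules. P2rx7 was nearest to Arid4a (0.993), Entpd1 to Gpr155 (0.975), Adora3 to Bet1l (0.981) and P2ry6 to Naa38 (0.972). These values describe 8 points that share the split between library sets and the order of days, and with 3236 candidates high values arise readily, so they are a description only.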

How the data were processed

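Each of the 8 libraries came as a sparse matrix of UMI counts by gene and barcode, which the authors deposited raw. The submitters' processing notes name Cell Ranger 2.1.1 and the build mm10. The kit version differs between labels and methods, and no source used here gives the thresholds of the study's cell filter. Cells with at least 1000 UMIs, 500 genes and at most 10% mitochondrial UMIs were kept. The sort excluded doublets per the methods, and no doublet caller was run. Levels were UMI sums as CPM. For ratios 0.5 UMIs were added to each sum, and the median log2 ratio of genes reaching 100 UMIs over both sums was subtracted, shifting values by -0.128 to 0.0696 on the log2 scale. Intervals at 95% were exact Poisson (levels), Clopper-Pearson (shares) and conditional binomial (ratios), and cover counting error only. Shares and classes used cells thinned without replacement to 2000 UMIs. With 1 library per group no test was run, and a 2-fold ratio was the only call. Members, gene lists, classes and comparisons were chosen with earlier results of these data known. The genes named are the 8 members, genes of the pathway lists past 2-fold, Kcnk13 as a member's partner chosen after its values were seen, and the 3 most similar genes of each member, of which 1 is given for some. Scripts ran in Python 3.11.15 and R 4.3.3 (edgeR 4.0.16 for an alternative scaling) and were tested on simulated data.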

Additional observations from a re-analysis of the deposited data

Results flagged for a closer look

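Adora3 was the only member whose ratio to the naive library had opposite signs in the genotypes with both intervals clear of 0. At day 1 it was 0.31 (0.12 to 0.52) in control and -0.26 (-0.44 to -0.08) in A20 cKO, a difference of -0.57 on the log2 scale. At day 2 it was 0.33 (0.14 to 0.54) in control and -0.18 (-0.37 to -0.00294) in A20 cKO, a difference of -0.52. With 1 library per group this difference between genotypes was not tested. Without centring on the median gene the control ratio at day 1 was 0.19 (-0.01 to 0.39), which spans 0, and at day 2 it was 0.22 (0.02 to 0.42). The control libraries of these days and the A20 cKO libraries belong to different library sets, and Adora3 shares exon bases with Tmigd3. All levels involved lay between 103 and 162 CPM.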

How the results depend on the processing

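The 72 log2 ratios of members were recomputed under 12 other settings, of which the removal of the interferon class was chosen after seeing the data. Of 864 values, 775 stayed inside the counting interval of the reported ratio, 89 left it, 21 changed sign, and 0 of those past 2-fold changed direction. The largest change was 0.30 in size, for Entpd1 in A20 cKO day 3 against control day 3 without the interferon class. For A20 cKO day 1 against A20 cKO naive, the count of 2 members lower became 1 without dividing cells, and 0 with the stricter cell filter, without centring, on thinned cells, without shared barcodes, without cells with other markers, by the mean of cell CPM, or on thinned cells without the interferon class. For control day 2, 1 member (Gpr34) in place of 0 was lower without centring. The 1 member lower in A20 cKO naive against control naive became 0 without the interferon class, and the 1 higher in A20 cKO day 3 against control day 3 became 0 without centring, on thinned cells, or without the interferon class. P2ry13, the member of that naive comparison, moved from -1.13 to -0.99, outside its counting interval. Entpd1 in A20 cKO day 2 also fell short of 2-fold without dividing cells and without the interferon class, which left 2 of 3 members lower. Shares of cells with a UMI moved beyond their interval in 64 of 64 cases without thinning. With class limits of 2 dividing genes or 4 genes of the other lists, 35 and 102 class ratios stayed inside their interval and 5 and 26 moved. None was marked as reversed, but that mark did not cover every change of sign. In the chemokine class P2rx7 was below 0 in 4 of 7 libraries, and with the limit of 4 genes in 7 of 7. Entpd1 was below 0 there in 7 of 7 libraries, and with that limit in 5 of 7. No paired analysis was possible because each group held 1 library. Counts of 1 to 3 UMIs limit the low genes, and only replicate libraries could give an error for any difference between groups.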
